A study of Mus musculus with 117 samples.

Results

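The urea cycle is the pathway by which the liver turns ammonia, released when amino acids are broken down, into urea. In mitochondria, NAGS makes N-acetylglutamate, the activator that CPS1 needs to join ammonia and bicarbonate into carbamoyl phosphate, and OTC then makes citrulline. ASS1 and ASL turn citrulline into arginine in the cytosol, and ARG1 splits arginine into urea and ornithine. SLC25A15 carries ornithine into mitochondria, and SLC25A13 (citrin) exports the aspartate that ASS1 uses. The enzymes are typical of hepatocytes, which make up most of the liver. The gene for OTC is X-linked and is not part of the set described here.

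The set was the 7 autosomal genes Nags, Cps1, Slc25a15, Ass1, Asl, Arg1 and Slc25a13, out of 20665 autosomal protein-coding genes. They were listed by name, without use of a measured value. The study profiled histone marks by chromatin immunoprecipitation sequencing in hepatocytes of female mice aged 12 weeks from 9 inbred strains: the wild-derived strains CAST/EiJ, PWK/PhJ and WSB/EiJ and the laboratory strains C57BL/6J, A/J, DBA/2J, 129S1/SvImJ, NZO/HlLtJ and NOD/ShiLtJ. The labels name no treatment and no engineered allele. Each strain had 13 libraries, 117 in all: H3K4me1, H3K4me3, H3K27ac and H3K27me3 in 3 mice each, and 1 input.

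What was deposited is 1 chromatin state map per strain, in which each 200-bp bin is given a state from 1 to 14, a state being a recurring combination of marks. The marks behind each number are not given in the sources used here, so a number is used only as a name. State 14 was the most widespread, with 57.8% ± 2.53 of the bins of an average gene (SD, n = 9 strains). The mice of a strain share 1 map, so a strain is 1 value, every SD below is between strains, and no error within a strain can be given. Sequencing depth is unknown. Inbred strains have common ancestors, so the 9 values behind each p-value are not fully independent.

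Each gene was taken from end to end with 2 kb added on either side, which gave 2085 bins for the 7 genes. On GRCm38 (mm10), Nags lay at chr11:102145513-102149528 (41 bins with the padding) and Cps1 at chr1:67122426-67231267 (565 bins). Slc25a15 lay at chr8:22375550-22398621 (137 bins) and Ass1 at chr2:31470270-31520670 (273 bins). Asl lay at chr5:130011258-130024381 (86 bins), Arg1 at chr10:24915207-24927470 (82 bins) and Slc25a13 at chr6:6041218-6217304 (901 bins). Exons, introns and UTRs were not separated, since the gene table used gives whole genes. The long non-coding RNA gene Gm11586 overlapped 34.9% of the padded Nags span and Gm40616 overlapped 41.7% of the padded Arg1 span, so a state there cannot be assigned to 1 of the overlapping genes. Other overlaps lay in the padding only: Med23 at Arg1 (1.99% of the span), 1810012K16Rik at Slc25a15 (3.22%) and Gm40334 at Asl (7.32%).

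Bases upstream of the start site were matched in the RefSeq promoter table for GRCm38.p6 for 4 of the 7 genes, Nags, Slc25a15, Ass1 and Slc25a13. They are shown because state 3 lay at or beside them. In all 7 genes state 3 was higher around the start, or around both ends where strand was not available, than in the remainder. Each run reads 5′ to 3′ on the gene's own strand, and capitals mark GGGCGG, a GC box, on either strand. The positions are chr11:102145263-102145512 for Nags (plus strand), chr8:22398622-22398871 for Slc25a15 (minus strand), chr2:31470020-31470269 for Ass1 (plus strand) and chr6:6217305-6217423 for Slc25a13 (minus strand). The Slc25a13 run has 119 bases, because the RefSeq start lies 131 bases inside the annotated gene end and only bases outside the gene are printed; the others have 250.
Nags: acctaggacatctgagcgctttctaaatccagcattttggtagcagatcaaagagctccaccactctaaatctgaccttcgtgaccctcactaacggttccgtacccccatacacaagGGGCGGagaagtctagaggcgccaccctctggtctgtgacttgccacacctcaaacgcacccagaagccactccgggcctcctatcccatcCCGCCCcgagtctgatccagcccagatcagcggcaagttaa
Slc25a15: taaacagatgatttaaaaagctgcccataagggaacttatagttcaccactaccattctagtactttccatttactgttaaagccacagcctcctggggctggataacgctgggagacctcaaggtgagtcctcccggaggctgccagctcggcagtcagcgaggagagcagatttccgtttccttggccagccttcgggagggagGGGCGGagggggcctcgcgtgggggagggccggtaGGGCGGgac
Ass1: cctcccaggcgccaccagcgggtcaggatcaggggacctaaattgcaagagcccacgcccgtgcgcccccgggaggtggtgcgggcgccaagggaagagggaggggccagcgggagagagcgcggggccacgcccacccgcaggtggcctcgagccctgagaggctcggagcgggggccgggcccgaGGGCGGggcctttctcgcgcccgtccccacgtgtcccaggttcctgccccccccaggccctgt
Slc25a13: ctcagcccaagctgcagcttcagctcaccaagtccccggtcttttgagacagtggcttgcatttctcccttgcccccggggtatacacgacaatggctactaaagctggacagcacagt

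A GC box was present in 3 of these 4 promoters. Nags had 2 matches, whose first bases lay 132 and 41 bases before the start, Slc25a15 had 2, at 44 and 9 bases, and Ass1 had 1, at 63 bases. Of 31396 autosomal promoters of the same length, 33.0% held GGGCGG. The CCAAT box had 1 match among the 4 genes, 22 bases before the Slc25a13 start and inside the annotated gene, against 33.7% of all promoters with 1 or more. Searched on both strands, TATAAA, TTGCNNAA and CAAAGT had 0 matches in the 250 bases of any of the 4, against 12.4%, 9.66% and 12.6% of all promoters. Ass1 had 23 CG dinucleotides in its 250 bases, more than 86.3% of promoters, and Nags, Slc25a15 and Slc25a13 had 11 each, against a median of 6. A further RefSeq start of Slc25a15, 344 bases inside the gene, had 43 in its own 250 bases, more than 99.3% of promoters. These counts are descriptions of the letters and say nothing of binding. Every bin under the printed bases was in state 3 or state 1 in each of the 9 strains. At Ass1 both bins were in state 3 in 129S1/SvImJ, DBA/2J, NOD/ShiLtJ and NZO/HlLtJ, and 1 of 2 was in the other strains. At Slc25a15 1 of 2 was in state 3, except in A/J, NOD/ShiLtJ and PWK/PhJ, where both were in state 1.

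Of the 7 genes, 6 lay almost wholly outside state 14, and Slc25a13 lay outside it over part of its length. Nags, Ass1, Asl and Arg1 had 100% of their bins outside it in each of the 9 strains. Slc25a15 followed with 98.1% ± 3.45 (SD, n = 9 strains; lowest 89.8% in A/J, median 100%). Cps1 had 96.1% ± 2.38 (91.3% in C57BL/6J, median 97.2%, highest 98.2%). The ranges of Slc25a15 and Cps1 overlapped, so their order is not fixed. Slc25a13 stood apart at 58.6% ± 8.90, from 47.1% in A/J over a median of 56.5% to 75.4% in NZO/HlLtJ, and its range did not overlap that of any other member.

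The same measure averaged 42.2% ± 2.53 over all autosomal protein-coding genes. The excess over that mean was called higher for 7 of 7 members, in 9 of 9 strains each (two-sided exact permutation test that flips the sign of each strain, Benjamini-Hochberg adjusted over all genes, adjusted p = 0.00569). Of all genes, 35.2% were called higher by this rule and 48.2% lower. The smallest p that 9 strains allow is 0.00391 before adjustment, so all members sit at that limit and the p-values do not rank them. The median excess was 57.8 percentage points over the members and −6.20 over all genes. States 5, 7, 10, 11, 12 and 13 were found in 0 of the 2085 member bins in every strain, and state 9 in 3 bins over the 9 strains together. Those 6 absent states made up 11.3% of the average gene, and 51.0% of all genes also lacked all of them.

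**Figure D1:**
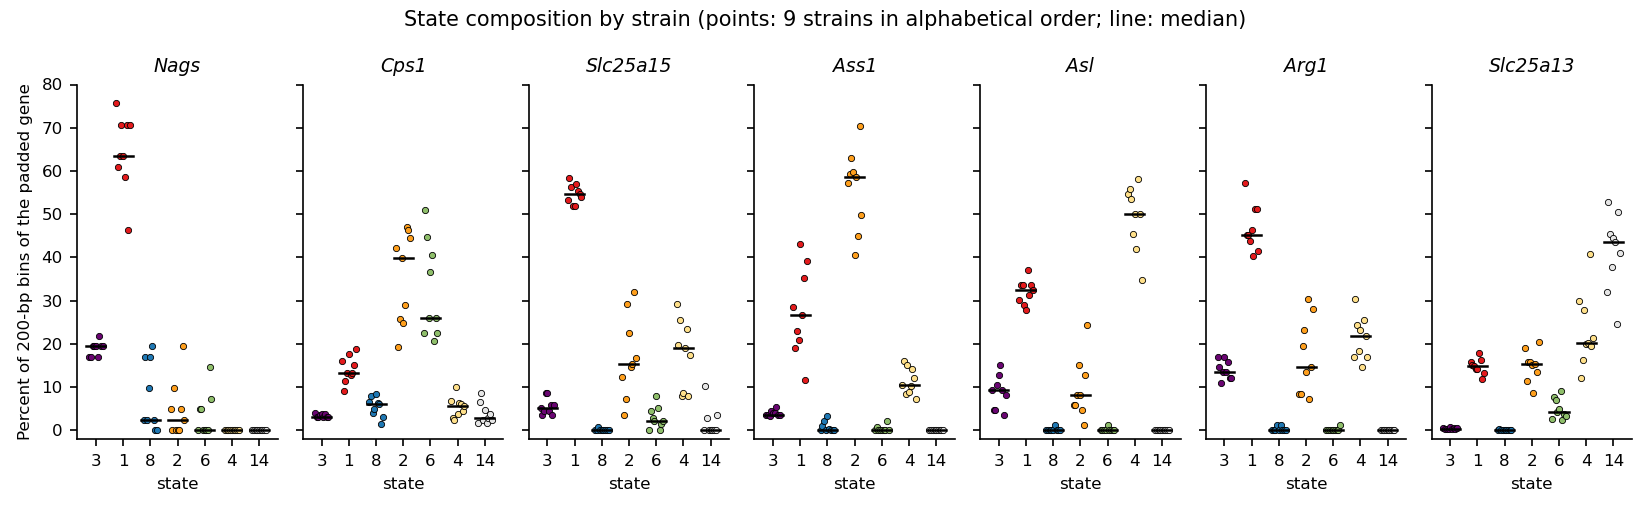
Percent of the bins of each padded gene (vertical axis) in 7 of the 14 states (horizontal axis), ordered from state 3 to state 14, for 7 urea cycle genes. Each point is a strain, in alphabetical order from left to right, and the line is the median of 9 strains: state 1 leads at Nags, Slc25a15 and Arg1, state 2 at Ass1 and at Cps1 with state 6, state 4 at Asl, and state 14 at Slc25a13.

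The mix of states differed from gene to gene. State 1 was the most frequent state at Nags, which makes the activator of the cycle (46.3% in PWK/PhJ, median 63.4%, 75.6% in 129S1/SvImJ). It also led at Slc25a15, the ornithine carrier (51.8% to 58.4%, median 54.7%), and at Arg1, the enzyme that releases urea (40.2% in NOD/ShiLtJ, median 45.1%, 57.3% in 129S1/SvImJ). The average gene had 9.12% of its bins in state 1. At these 3 genes every strain was therefore several-fold above the average gene, and Slc25a15 varied least.

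State 2 was the most frequent state at Ass1, the enzyme that joins citrulline and aspartate, in 8 of 9 strains, with 40.7% in DBA/2J, a median of 58.6% and 70.3% in PWK/PhJ. In DBA/2J state 1 led with 43.2%. The average gene had 3.67%, and 99.97% of all genes had a lower mean share than Ass1. At Asl, which yields arginine, state 4 led instead with 34.9% in WSB/EiJ, a median of 50% and 58.1% in NZO/HlLtJ, against 4.44% in the average gene. Its mean share of state 4 exceeded that of 99.7% of genes.

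Cps1, the entry enzyme of the cycle, was filled by states 2 and 6 together, at 67.7% ± 3.34 (SD, n = 9 strains; 61.6% in DBA/2J, median 67.8%, 72.4% in PWK/PhJ). The sum varied little between strains, while its parts did not. State 2 ran from 19.3% in A/J over a median of 39.8% to 47.1% in NZO/HlLtJ. State 6 ran the other way, from 20.7% in NZO/HlLtJ over a median of 26.0% to 51.0% in A/J. In A/J, state 6 was also more frequent over all autosomal gene spans than in any other strain, at 5.18% of bins against 3.74% in 129S1/SvImJ, the lowest; the part of that strain-wide level in the Cps1 value was not tested.

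Slc25a13, the aspartate carrier, was the longest of the 7 genes at 176 kb and the one with the most state 14. State 14 took 24.6% of its bins in NZO/HlLtJ, a median of 43.5% and 52.9% in A/J. State 4 mirrored it, with 12.2% in A/J, a median of 20.3% and 40.8% in NZO/HlLtJ. Over all gene spans state 4 held 3.97% of bins in NZO/HlLtJ, between 2.50% in NOD/ShiLtJ and 5.10% in CAST/EiJ, so NZO/HlLtJ was not extreme there.

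Each of the 7 genes carried state 3 at or close to 1 of its ends in all 9 strains, and a core of it covered the same bins in every strain. At Nags that core was chr11:102145401-102146800 (1400 bp), with segments of 1400 to 1800 bp in single strains, and it held the start site. At Cps1 it was the longest, chr1:67123001-67126400 (3400 bp), with segments from 3400 bp in PWK/PhJ over a median of 3600 bp to 4600 bp in 129S1/SvImJ. At Ass1 it was chr2:31470201-31472000 (1800 bp), with a median segment of 2000 bp and 3000 bp in NZO/HlLtJ. The first base of the Nags segment was the same in all 9 strains, while its last base took 3 values.

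At the other 4 genes state 3 lay at the end with the higher coordinate, which is the start of Slc25a15 and Slc25a13. The Slc25a15 core was chr8:22397601-22398600 (1000 bp), with segments up to 2400 bp in DBA/2J. The Slc25a13 core was chr6:6216401-6217200 (800 bp), with segments up to 1200 bp in 129S1/SvImJ and DBA/2J. At Arg1 the core was chr10:24925601-24927400 (1800 bp), with segments up to 2800 bp in 129S1/SvImJ. At Asl it was the shortest, chr5:130023801-130024400 (600 bp), with segments from 600 bp in PWK/PhJ over a median of 1200 bp to 2200 bp in DBA/2J. Strand was not available for Cps1, Asl and Arg1, so whether that end is the start was not taken from the table.

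The share of state 3 within 1 kb of the start was compared with the share in the remainder of the padded gene; for Cps1, Asl and Arg1 the windows at both ends were joined. Ass1 had 58.6% ± 4.79 in the window (SD, n = 9 strains) against 1.70% ± 0.607 in the remainder. Nags had 55.6% ± 3.03 against 5.56% ± 2.36, and Slc25a15 had 51.5% ± 4.55 against 1.59% ± 1.90. Slc25a13 had 39.4% ± 4.55 against 0.0499% ± 0.0816. With both ends joined, Arg1 had 28.8% ± 3.94 against 8.70% ± 2.17, Asl had 24.7% ± 7.58 against 3.13% ± 4.56, and Cps1 had 17.2% ± 2.00 against 2.89% ± 0.357. State 3 was higher in the window in 9 of 9 strains at all 7 genes.

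All 7 members were called higher in the window (the same exact permutation test, adjusted over all genes, adjusted p = 0.0091). Of all genes, 42.4% were called higher and 4.95% lower by this rule. The median difference was 39.3 percentage points over the members and 0.480 over all genes. At Cps1 the call was lost with a window of 500 bp to each side, where the difference was 3.11 percentage points (adjusted p = 0.0888 by the same permutation test). Taken by single ends, the Cps1 end with the lower coordinate had 34.3% ± 4.01 in state 3 and the other end had 0% in every strain; the Asl end with the higher coordinate had 49.5% ± 15.2 and that of Arg1 57.6% ± 7.87, again against 0%.

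The far ends carried other states. At the gene end away from state 3, the median share of state 4 was 100% at Ass1, Asl and Arg1, with lowest values of 81.8% in WSB/EiJ, 63.6% in CAST/EiJ and 63.6% in 129S1/SvImJ. At the Cps1 end with the higher coordinate, states 4 and 14 exchanged: state 14 ran from 0% over a median of 63.6% to 100% of the window. State 1 at the end of Nags ran from 18.2% in PWK/PhJ over a median of 81.8% to 100% in 129S1/SvImJ.

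State 1 did not behave alike across the 7 genes in the same comparison. Slc25a13 had 55.6% ± 9.58 of the start window in state 1 against 14.4% ± 1.65 in the remainder, Cps1 had 32.8% ± 2.00 against 13.4% ± 3.13, and Ass1 had 41.4% ± 4.79 against 26.9% ± 10.7, and these 3 were called higher. The other 4 were called lower: Arg1 with 21.2% ± 3.94 against 56.3% ± 8.45, Nags with 44.4% ± 3.03 against 71.9% ± 12.4, Asl with 25.3% ± 7.58 against 34.5% ± 2.27 and Slc25a15 with 48.5% ± 4.55 against 55.3% ± 2.21. Adjusted p was 0.00839 by the permutation test, or 0.0295 for Ass1 and Asl, where 8 of 9 strains went the same way. Of all genes, 43.8% were called higher and 9.69% lower. For Arg1, Asl and Cps1 the window joins both ends, and state 1 lay at only 1 of them. Taken by single ends, it held 50.5% ± 15.2 at the Asl end with state 3, 42.4% ± 7.87 at that of Arg1 and 65.7% ± 4.01 at that of Cps1. Their far ends had 0% in every strain. The lower call of Asl therefore does not describe its end with state 3, and single ends were not tested. State 1 and state 3 share the window, so more of one leaves less for the other.

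These calls depended on the window and on what it was compared with. With 2 kb to each side the Slc25a15 difference turned from −6.81 to 10.96 percentage points (adjusted p = 0.0548 by the permutation test) and that of Asl from −9.30 to 4.34 (adjusted p = 0.251). Compared with the window at its other end in place of the remainder, Slc25a15 was called higher, by 48.5 points (adjusted p = 0.00907). With both ends joined, the Ass1 difference turned to −7.40 (adjusted p = 0.219). The Ass1 call was lost (adjusted p of 0.0579 to 0.0583) when any 1 of PWK/PhJ, CAST/EiJ, C57BL/6J, A/J, NOD/ShiLtJ and 129S1/SvImJ was left out. That of Asl was lost (adjusted p of 0.0581 to 0.0583) without any 1 of WSB/EiJ, NZO/HlLtJ, CAST/EiJ, NOD/ShiLtJ, DBA/2J and 129S1/SvImJ.

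**Figure D2:**
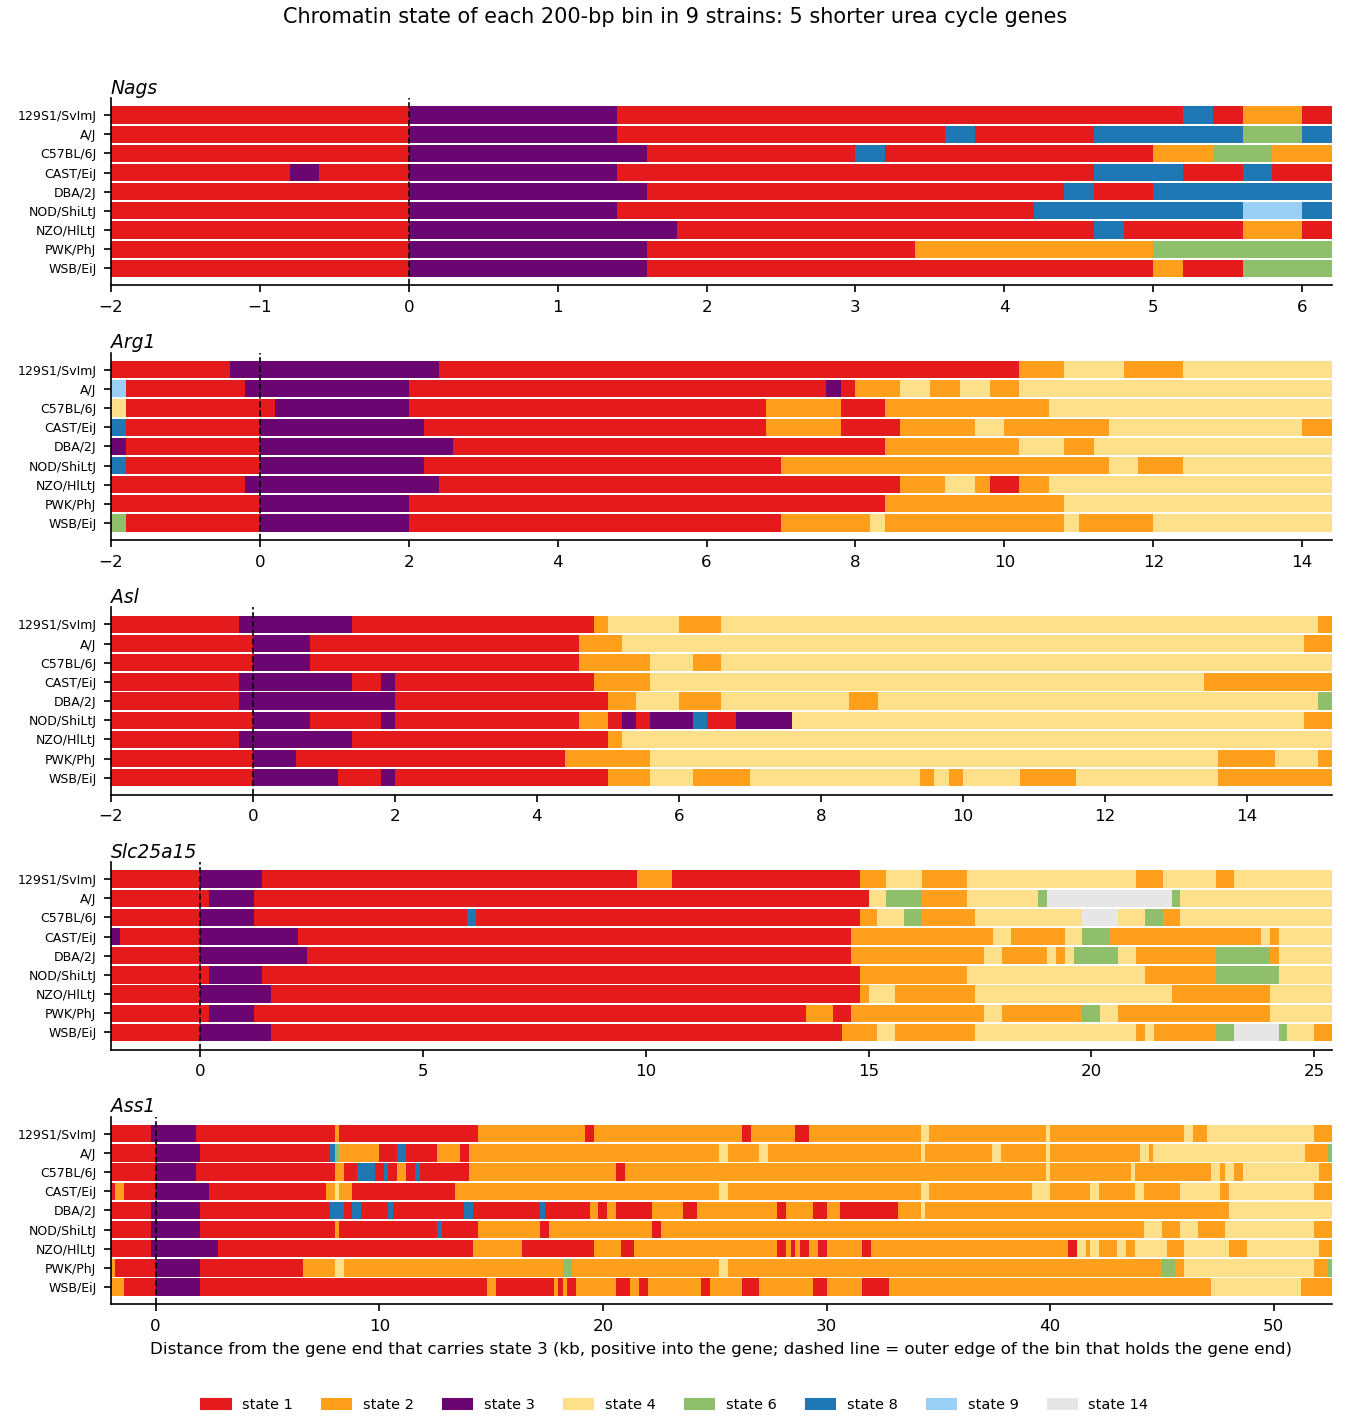
State of each 200-bp bin (colour) in each of 9 strains (vertical axis) along Nags, Arg1, Asl, Slc25a15 and Ass1, by distance in kb from the outer edge of the bin that holds the gene end with state 3 (dashed line, positive into the gene). State 3 sits at the dashed line or begins 1 bin inside it, state 1 lies on both sides of state 3, and states 2 and 4 follow inward except at Nags.

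Going away from state 3, the states came in the same order at most of the genes. The median distance from the state 3 segment rose from state 1 to state 2 to state 4 in 9 of 9 strains at Cps1, Ass1, Arg1 and Slc25a13, in 8 strains at Slc25a15 and in 7 at Asl. Nags had no state 4. Of 2826 genes with states 1 to 4 in every strain, 525 (18.6%) showed the order in 9 of 9 strains. At Ass1 the median distance over strains was 5.60 kb for state 1, 29.1 kb for state 2 and 47.1 kb for state 4. At Arg1 it was 2.10 kb, 7.40 kb and 10.5 kb, and at Slc25a13 it was 11.4 kb, 39.1 kb and 89.5 kb.

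The unbroken run of states 1 and 3 around the gene end with state 3 also differed in length. It was not cut at the padded gene, so part of it can lie outside. At Ass1 the run went from 8.4 kb in PWK/PhJ over a median of 10.2 kb to 25.2 kb in DBA/2J, the widest range of the 7 genes. The DBA/2J run, chr2:31452801-31478000, began upstream of the padding, and its end inside the gene was close to that in C57BL/6J, chr2:31478200. At Asl the run stayed between 14.6 kb in PWK/PhJ and 15.8 kb in NOD/ShiLtJ, the narrowest range. Every Asl run went on past the padding, as at chr5:130020001-130034600 in PWK/PhJ. At Slc25a13 the run went from 19.4 kb in PWK/PhJ to 26.2 kb in 129S1/SvImJ.

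**Figure D3:**
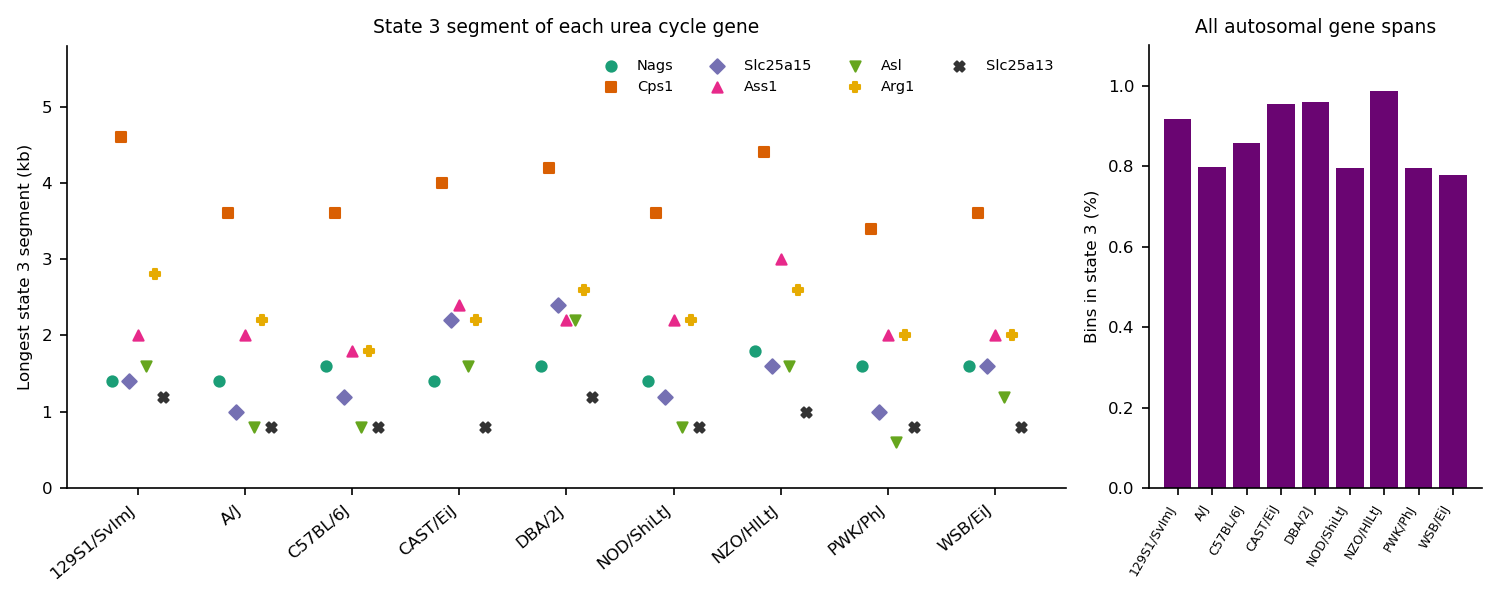
Left, length in kb of the longest state 3 segment of each of 7 urea cycle genes in each of 9 strains. Right, percent of bins in state 3 over all autosomal protein-coding gene spans in the same strains (bars from 0): the members' longest segments sum to 11400 bp in PWK/PhJ and 16400 bp in DBA/2J, and the 4 strains with the longest sums also have the 4 highest bars.

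Summed over the 7 genes, the longest state 3 segments covered 16400 bp in DBA/2J, 16000 in NZO/HlLtJ, 15000 in 129S1/SvImJ and 14600 in CAST/EiJ. The sums were 12800 bp in WSB/EiJ, 12200 bp in NOD/ShiLtJ, 11800 bp in A/J, 11600 bp in C57BL/6J and 11400 bp in PWK/PhJ. State 3 over all autosomal gene spans was highest in the same 4 strains, at 0.986% of bins in NZO/HlLtJ, 0.960% in DBA/2J, 0.955% in CAST/EiJ and 0.917% in 129S1/SvImJ, and between 0.779% and 0.857% in the other 5. Further state 3 segments of a gene are not in these sums. With all member bins counted, state 3 held 3.36% in NOD/ShiLtJ and 3.17% in WSB/EiJ, the reverse of their order by the sums. The part of the strain-wide level in the members' lengths was not tested.

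At Asl, NOD/ShiLtJ had 5 state 3 segments within the padded gene, where the other strains had 1 or 2. One of them, chr5:130016801-130017400, lay in bins that all 8 other strains carried in state 4. The share of state 3 over all Asl bins was 15.1% in NOD/ShiLtJ, against a median of 9.30%.

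Disagreement between strains was measured as the percentage of a gene's bins whose state differs, averaged over the 36 pairs of strains. Cps1 had the most at 32.4%, followed by Slc25a13 at 28.3%, Ass1 at 23.9%, Nags at 22.6%, Slc25a15 at 21.9%, Arg1 at 20.2% and Asl at 18.8%. The median over all 20665 genes was 20.1%, with quartiles of 11.5% and 29.3%, so Cps1 alone lay outside the middle range and 6 of 7 members were above the median. No test was made, since pairs share strains. The measure was also taken over bins outside state 14 in at least 1 strain, which drops only bins that agree in state 14. Agreeing bins of other states stay in, so the value of a gene can rise but not fall. Nags, Slc25a15, Ass1, Asl and Arg1 kept their values, having no bin in state 14 in every strain. The median of 20047 genes was then 34.9%. All 7 members fell below it, from Asl at 18.8%, above 4.09% of genes, to Slc25a13 at 34.4%, above 47.9%. That place below the median is partly built into the measure, and the part of state 14 in the disagreement of other genes was not tested. At Cps1 the value was then 32.7%, above 39.2% of genes.

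**Figure D4:**
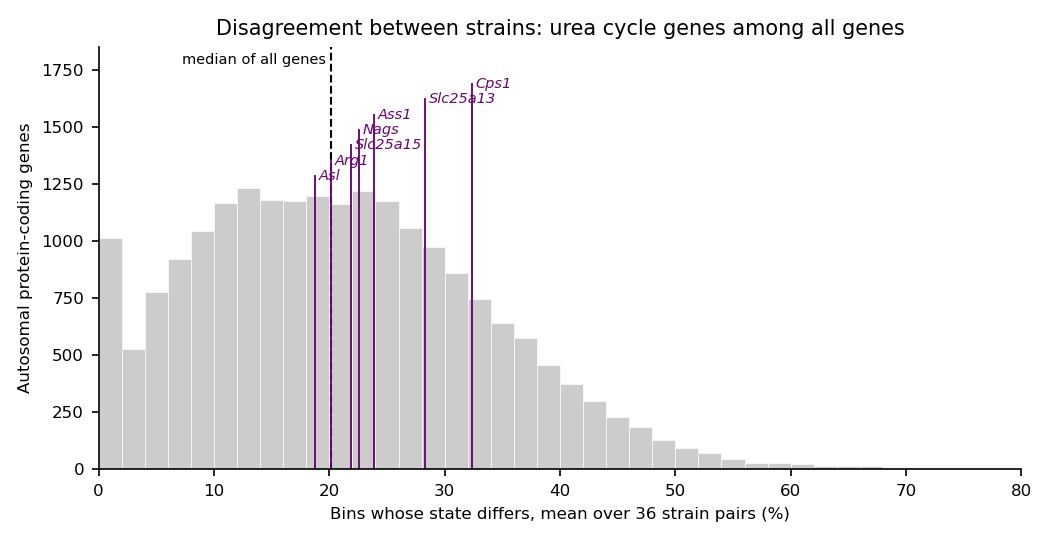
Histogram of 20665 autosomal protein-coding genes (vertical axis) by the percentage of their bins whose state differs, averaged over 36 strain pairs (horizontal axis). Vertical lines mark the 7 urea cycle genes, from Asl at 18.8% to Cps1 at 32.4%, and the dashed line marks the median of all genes at 20.1%.

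The same state in all 9 strains was found in 56.1% of the bins of Nags, 54.9% of Arg1, 54.7% of Slc25a15 and 52.3% of Asl. It was found in 37.7% of the bins of Ass1, 35.1% of Slc25a13 and 27.3% of Cps1, against a median gene of 50.7%. The longest stretch of 1 state shared by all strains was at Slc25a13, where chr6:6201601-6216000 (14.4 kb) was in state 1 throughout. From chr6:6170201 to chr6:6219400 (49.2 kb), Slc25a13 was outside state 14 in all 9 strains, and chr6:6049601-6059200 (9600 bp), near its other end, was in state 14 in all 9. Ass1 shared state 2 over chr2:31504801-31507600 (2800 bp), and Arg1 shared state 1 over chr10:24920801-24925000 (4200 bp).

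At each gene 1 exchange of states led the disagreement. At Cps1, 52.4% of the differing pairs of bins were state 2 in one strain and state 6 in the other. At Ass1 58.8% were states 1 and 2, and at Slc25a13 52.1% were states 4 and 14. States 2 and 4 accounted for 51.5% at Asl, 43.5% at Slc25a15 and 40.5% at Arg1, where states 1 and 2 added 36.8%. At Nags the leading exchange was between states 1 and 8, with 32.1%. The leading exchange was between states that neighbour each other in the order given above at 4 of the 7 genes, Ass1, Asl, Slc25a15 and Arg1. States 1, 2 and 4 held most bins of these 4 genes, which limits the exchanges that can lead. The share of all genes with such a leading exchange was not taken, so the count is a description only.

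No strain was the most different at every gene. Averaged over its 8 partners, PWK/PhJ differed most at Nags (34.1% of bins), A/J at Cps1 (35.6%) and Slc25a15 (27.4%), and DBA/2J at Ass1 (32.5%). WSB/EiJ differed most at Asl (25.7%), 129S1/SvImJ at Arg1 (26.7%) and NZO/HlLtJ at Slc25a13 (33.1%). Over all genes PWK/PhJ had the highest such mean, 24.9%, yet at Arg1 and Cps1 it had the lowest of the 9 strains, 14.9% and 30.0%. The least different pair at Asl was 129S1/SvImJ and NZO/HlLtJ (6.98%) and the most different NOD/ShiLtJ and WSB/EiJ (33.7%). At Ass1 the extremes were 129S1/SvImJ with NOD/ShiLtJ (9.52%) and DBA/2J with PWK/PhJ (42.9%), and at Cps1 A/J with C57BL/6J (23.0%) and A/J with WSB/EiJ (44.1%).

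**Figure D5:**
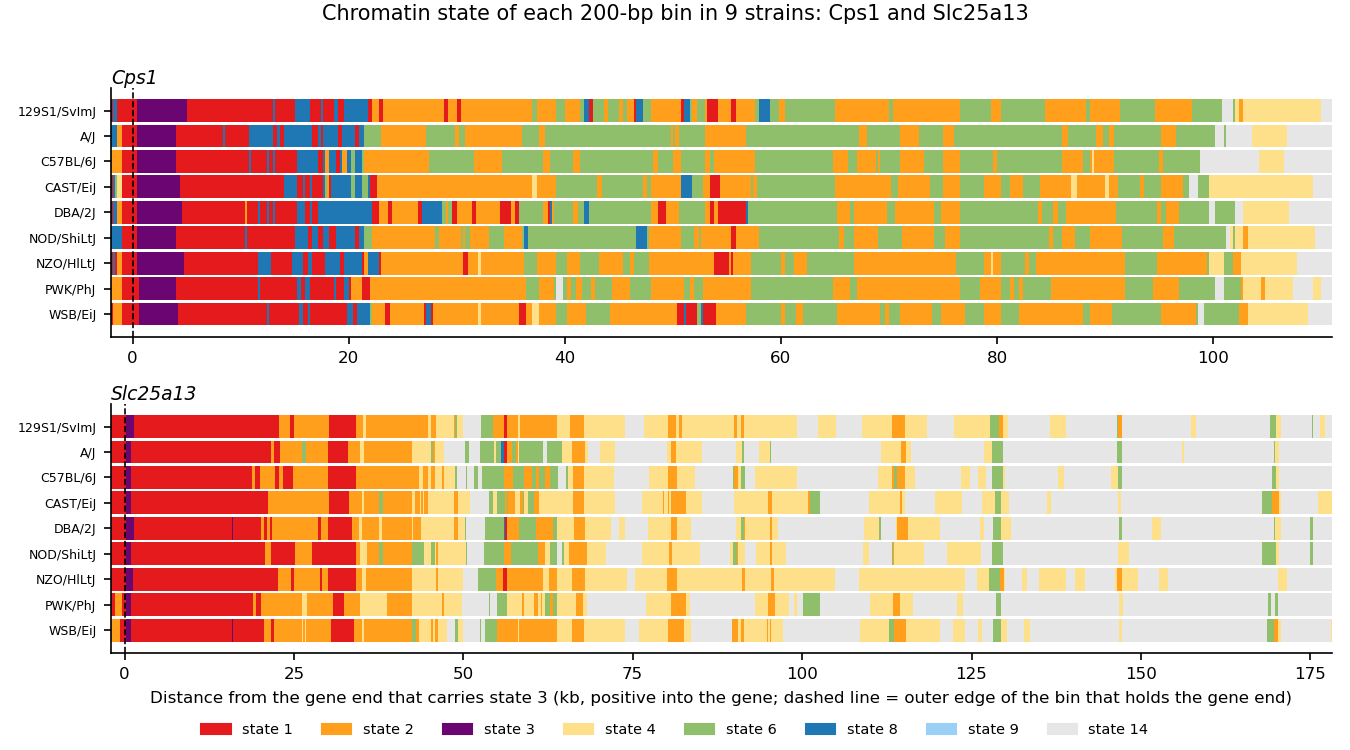
State of each 200-bp bin (colour) in each of 9 strains (vertical axis) along Cps1 and Slc25a13, by distance in kb from the outer edge of the bin that holds the gene end with state 3 (dashed line, positive into the gene). At Cps1 states 2 and 6 alternate, in part at places shared by all strains and in part at places that differ, and at Slc25a13 the stretches of states 4 and 14 beyond the first 50 kb differ between strains.

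Bins in which 8 strains shared a state and 1 strain had another, called private here, numbered 358 of 2085 (17.2%), against 14.7% over all gene spans. PWK/PhJ had the most, 67, followed by NZO/HlLtJ with 59, and 129S1/SvImJ and CAST/EiJ had the fewest, 23 each. In PWK/PhJ this was 3.21% of the member bins, against 3.68% of all gene bins, so its lead was not particular to the members. In NZO/HlLtJ it was 2.83% against 1.02%, in DBA/2J 2.11% against 0.826% and in CAST/EiJ 1.103% against 2.39%. Runs of 3 or more private bins numbered 41, of which 21 lay at Slc25a13, 10 at Cps1, 6 at Ass1, 2 at Asl, 2 at Slc25a15 and 0 at Nags and Arg1. Slc25a13 and Cps1 are also the longest genes, with 901 and 565 of the 2085 bins. By share of a gene's bins, private bins were most frequent at Ass1 (21.6%) and Asl (20.9%), against 17.9% at Cps1 and 16.8% at Slc25a13.

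The longest such run was at Slc25a13, chr6:6138001-6140000 (2000 bp), in state 14 in A/J and in state 4 in the other 8 strains. NZO/HlLtJ had 6 runs at Slc25a13, all in state 4 where the others had state 14, the longest being chr6:6075601-6077200. At Ass1 the longest runs had 1000 bp: chr2:31476801-31477800, in state 2 in PWK/PhJ and state 1 elsewhere, and chr2:31500801-31501800, in state 1 in DBA/2J and state 2 elsewhere. At Cps1 3 runs of 1000 bp were longest. They lay at chr1:67155401-67156400 (state 6 in NOD/ShiLtJ, state 2 elsewhere), chr1:67178201-67179200 (state 1 in DBA/2J, state 2 elsewhere) and chr1:67180401-67181400 (state 8 in 129S1/SvImJ, state 6 elsewhere). At Slc25a15 the longest, chr8:22388201-22389000, was in state 2 in 129S1/SvImJ and state 1 elsewhere, and at Asl chr5:130012801-130013600 was in state 2 in WSB/EiJ and state 4 elsewhere.

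The genes most like each member were sought among all autosomal protein-coding genes by the Euclidean distance over the shares of the 14 states in the 9 strains. Nearest to Cps1 were Ube2n and Cyp2c70 (47.3 and 52.4 percentage points, median gene 258), and nearest to Ass1 were Prox1 and Plg (48.4 and 50.2, median gene 290). Nearest to Slc25a15 were Slc38a4 and Srsf4 (41.8 and 42.1, median gene 278). Mat1a and Khk were nearest to Arg1 (35.8 and 40.7, median gene 273) and Fgfr3 and Serpinf1 to Asl (42.2 and 53.8, median gene 281). Calr and Sertad3 were nearest to Nags (37.3 and 39.9, median gene 297), and Lrp5 and Dmgdh to Slc25a13 (31.2 and 33.4, median gene 161). No member was among the 2 nearest genes of another.

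A list of 30 other genes of nitrogen and arginine metabolism and its regulators was looked at in the same way. Outside state 14, 21 were called higher, 8 lower and 1 neither, where 35.2% of all genes were called higher and 48.2% lower. For state 3 at the start, 17 were called higher, 6 lower and 7 neither, where 42.4% of all genes were called higher and 4.95% lower, with a median difference of 13.9 percentage points. Among those called higher, Glud1, which frees ammonia from glutamate, had 72.7% of its start window in state 3 in every strain, against 3.66% in the remainder. Car5a, the mitochondrial carbonic anhydrase that supplies bicarbonate, had 50.5% ± 4.79 against 2.02% ± 1.82.

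State 3 was at 0% of the start window in at least 1 strain for 13 of the 30, among them Arg2, Cad, Asns, Aldh18a1, Pycr1, Nos3, Slc38a3, Slc38a4, Tat, Hnf4a, Gcgr and Nr3c1. Arg2, the second arginase, had 0% in the window and in the remainder, and it was called lower outside state 14 (22.7% of its bins), while Arg1 had 100%. Tat, tyrosine aminotransferase, had 0% in the window of its tabulated start but 28.4% ± 8.42 in the remainder, so absence in the window was not absence from the gene.

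The labelled cell type was checked with marker genes. All 7 hepatocyte markers found in the table, among them Alb, Ttr, Apoa1, Apoa2, Cyp7a1 and F2, were called higher outside state 14, where 35.2% of all genes were. For state 3 at the start 4 of them were called higher, Ttr and Apoa2 lower and 1 neither, where 42.4% of all genes were called higher. Of the 19 markers of other liver cells, 1 was called for state 3 at the start, the stellate cell gene Reln, which was higher. For state 1 at the start, Reln (42.4% ± 15.7 of the window, n = 9 strains) and the bile duct gene Sox9 (32.3% ± 11.2) were called higher and the endothelial genes Pecam1 and Lyve1 lower. The 4 Kupffer cell markers had 0% of states 1 and 3 there in every strain. Outside state 14, 2 of 4 Kupffer markers were called higher and 0 lower, 2 of 5 endothelial markers higher and 2 lower, 3 of 5 bile duct markers higher and 1 lower, and 1 of 5 stellate markers higher and 4 lower. The part of other cell types in the members' states was not tested.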

How the data were processed

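Per the labels, 117 libraries from 9 strains entered the study, and the authors deposited 1 segmentation of the autosomes and sex chromosomes per strain. The deposited values are not counts but a category, the state number of each interval, and the score column holds 0. The genome build mm10, FastQC 0.11.5 and MACS 1.4.2 are named per the submitters' processing notes. The aligner and the segmentation tool are not given in the sources used here, and differences in depth or mapping between strains could change the states in a way that cannot be measured from these files.

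Intervals were written as 200-bp bins with Python 3.11.15, numpy 2.4.6, pandas 2.3.3 and scipy 1.17.1. Figures were drawn with matplotlib 3.10.9. Gene positions came from a RefSeq table of GRCm38.p6, and strand came from the promoter table, for 16457 of 20665 genes. Where it gave none, windows at both ends stood in for the start. Tests were exact two-sided sign-flip permutation tests over 9 strains (512 sign patterns), Benjamini-Hochberg adjusted over all 20665 genes and called at 0.05. The sign-flip test of state 3 at the start was tested on simulated data for 2067 genes, and 200 of 200 planted differences were recovered. Of 1867 other genes 1 was called higher and 44 lower, so lower calls of sparse states are less sure. Simulated bins were drawn independently along the genome and between strains, whereas real states form segments and the strains share ancestors. These rates therefore need not hold for the data, and differences smaller than the planted ones were not simulated.

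Named genes were the 7 members, the 2 genes nearest to each, pathway genes with 0% of state 3 at the start in a strain, and the longest private run of each member. Glud1, Car5a, the named markers and further runs were named after their values were seen. Values of 2 listed genes are not reported here. The members, the lists and the states tested by place were chosen with earlier results of these data known. Groups were the strains in the labels. Other windows, paddings, state mergings and matching rules, and leaving out each strain, were tried.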

Additional observations from a re-analysis of the deposited data

Results flagged for a closer look

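Of 65 sets of 9 strain values, 14 had 1 strain set apart from the others, its gap to the next strain being above Dixon's critical share of the range of the set. Chance gives about 1 in 20, or 3.25 of 65, and several of these sets are 0 in most strains or share bins with each other. Where a set has only 1 or a few bins, a single bin is enough to set a strain apart.

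At Nags, PWK/PhJ stood apart with 19.5% of bins in state 2 (median 2.44%), 14.6% in state 6 (median 0%) and 34.1% of bins differing from the other strains on average (median 21.3%). NZO/HlLtJ stood apart at the same gene with 22.0% of bins in state 3 (median 19.5%) and a longest state 3 segment of 1800 bp (median 1600 bp). NZO/HlLtJ was also apart at Ass1, with 5.49% in state 3 (median 3.66%) and a segment of 3000 bp (median 2000 bp), and PWK/PhJ with 2.20% in state 6 (median 0%).

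At Slc25a15, A/J had 10.2% of bins in state 14 and C57BL/6J had 0.730% in state 8, both against a median of 0%. The others, again against medians of 0%, were 1.16% of Asl bins in state 6 in DBA/2J, 1.16% in state 8 in NOD/ShiLtJ, 1.22% of Arg1 bins in state 6 in WSB/EiJ and 0.222% of Slc25a13 bins in state 8 in A/J.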

How the results depend on the processing

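The count of members called higher outside state 14 was 7 of 7 under every alternative run, and so was that for state 3 at the start wherever all 7 could be tested, except 6 of 7 with windows of 500 bp. Compared with the window at the other end of the gene, or restricted to genes with a known strand (chosen after seeing the data), only 4 members could be tested and 4 were called higher. Of the values of single members and of all genes, 333 kept their direction and side of the threshold or moved little, 15 were no longer past it, 8 moved and 4 turned. The turned values are state 1 differences in percentage points: Slc25a15 (10.96) and Asl (4.34) with windows of 2 kb, Slc25a15 against its other end (48.5, now called higher, adjusted p = 0.00907, permutation test), and Ass1 with both ends joined (−7.40, adjusted p = 0.219, permutation test, chosen after seeing the data). The state 1 calls of Nags with 2 kb (−3.15) and Ass1 with 500 bp (15.4) were lost.

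The members' median disagreement between pairs rose from 22.6% to 28.5% with 10 kb of padding and fell to 16.4% where a match within 1 bin counted, against 14.8% for the median gene. Their median agreement of all strains, 52.3%, was 48.4% without padding, 37.0% with 10 kb and 54.7% with single-bin segments replaced; leaving out each strain in turn gave 52.3% to 56.1%. Counted per strain, private bins rose from 358 to 1030 where 7 or more of the other 8 strains had to share a state. A bin with 7 strains in 1 state counts there once for each remaining strain, so 1030 is not a number of separate bins. The causes of the other shifts were not tested. No paired analysis was possible because 1 map stands for all mice of a strain and the deposited columns carry no replicate numbers. Depth limits cannot be given.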
